A study of Homo sapiens with 12 samples.

Results

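The proteasome is the cell's main protease for ubiquitin-tagged and misfolded proteins, and its genes were followed here through heat shock and wounding of lung epithelial cells. The set was defined by name: every gene whose platform symbol starts with PSM, one letter from A to G and a number. It held 46 of the 18132 genes measured. Of these, 44 encode subunits, regulators or assembly factors of the proteasome. The other 2, PSMC3IP and PSME3IP1, encode interacting proteins that are no subunits, and they were kept apart. PSMA6, PSMC5, PSMD7 and PSMD13 were not analysed here. The 44 genes comprised 18 of the core particle (PSMA and PSMB), 21 of the regulatory particle and activators (PSMC, PSMD and PSME), 4 core assembly chaperones (PSMG) and the inhibitor PSMF1.

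RNA of A549 monolayers, a human alveolar carcinoma line grown on uncoated plastic, was measured on 12 PrimeView arrays, 3 for each of 4 groups. One group was heat shocked for 2 h and then wounded, with a wounding time of 4 h; one was heat shocked for 2 h only; one was wounded for 4 h only; and the control was neither heat shocked nor wounded. Neither the temperature nor the interval between heat shock and wounding is stated in the sources used here, and an established carcinoma line stands in for lung epithelium. Values are log2 probe set levels made by the authors, and each gene is represented by its brightest probe set over all arrays. A difference of 1 is therefore a 2-fold change, and a gene was called when limma's Benjamini-Hochberg adjusted p over all genes was under 0.05. The labels do not say whether the 3 samples of a group came from separate cultures, so the p-values measure the spread between samples that may be technical replicates. In bulk RNA, a change in the share of cells that express a gene cannot be told apart from a change in RNA per cell.

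Within groups the arrays correlated at 0.994 to 0.9982. One array stood apart: heat shocked and wounded replicate 2 had the narrowest spread of levels, with an interquartile range of 3.98 log2 units against 4.13 to 4.24 on the other arrays. The treatments could be read in the arrays: HSPA6, DNAJB1, BAG3 and SERPINH1, 4 textbook heat shock genes, rose by 1.98 to 5.79 after heat shock, and EGR1, FOS and MMP1 rose by 1.80 to 2.99 after wounding. EGR1 and MMP1 also rose after heat shock alone, by 1.03 and 1.61. Epithelial markers (EPCAM, KRT8, KRT18, KRT19 and CDH1) averaged 9.13 to 13.8 in every group. The 6 alveolar type II markers were spread widely, with control means of 2.26 for SFTPA1, 2.72 for LAMP3, 4.78 for NKX2-1, 5.26 for SFTPB, 6.08 for SFTPC and 7.65 for ABCA3. So were the 5 leukocyte markers, with control means of 2.27 for PTPRC, 2.77 for LYZ, 4.13 for CD3E, 5.84 for CD14 and 6.84 for CD68.

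As background, the core particle is a barrel of stacked rings in which alpha subunits gate the entrance and beta subunits carry the proteolytic sites. The regulatory particle caps the barrel, recognises ubiquitin chains, removes them and unfolds the substrate with a ring of ATPases. Dedicated chaperones assemble both particles and leave before or as the complex matures. Under interferon, 3 catalytic beta subunits are replaced by inducible ones, which favours peptides for antigen presentation.

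Most proteasome genes lay slightly below their control level after heat shock, and few of them passed the test. Against control, 6 of the 44 were called in heat shocked monolayers, 1 higher and 5 lower, where 12.9% of all genes were called (4.93% higher and 7.92% lower). In heat shocked and wounded monolayers 9 were called, 1 higher and 8 lower, where 23.1% of all genes were called (8.66% higher and 14.4% lower). Wounding alone called 0 of the 44 with limma, 1 at an unadjusted p under 0.05, where 3.57% of all genes were called. The 3 counts are close to what these background shares would give in 44 genes. In wounded monolayers 2.27% of all genes were called higher and 1.31% lower.

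The direction of the small differences was shared by most of the set. After heat shock 40 of the 44 differences were below 0, beside 10723 of the 18132 over all genes, with a median of -0.12 against -0.03 over all genes. After heat shock and wounding 36 were below 0, beside 9319 over all genes, with a median of -0.09 against -0.01 over all genes. After wounding alone 37 were below 0, beside 11274 over all genes, but the median of -0.03 was that of all genes to 2 decimals. Genes with a mean level of at least 5 had medians of -0.05 after heat shock, -0.06 after both treatments and -0.03 after wounding. The 42 proteasome genes at that level had medians of -0.12, -0.09 and -0.03 in the same order. After heat shock and after both treatments the gap was thus smaller than against all genes. Counting genes whose 3 treated arrays all lay on one side of the 3 controls, 1 proteasome gene was higher and 24 were lower after heat shock, where 31.3% of all genes did not overlap (10.5% higher and 20.8% lower). After both treatments 1 was higher and 22 were lower, where 37.4% of all genes did not overlap (14.7% higher and 22.7% lower). After wounding 1 was higher and 7 were lower, where 21.9% of all genes did not overlap (7.97% higher and 13.9% lower). The SD of the median over the 44 genes between replicate arrays was 0.0328. No proteasome gene differed from control by more than 0.34 in either direction, whereas the whole array ranged from -2.37 to 6.46 after heat shock and wounding.

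**Figure D1:**
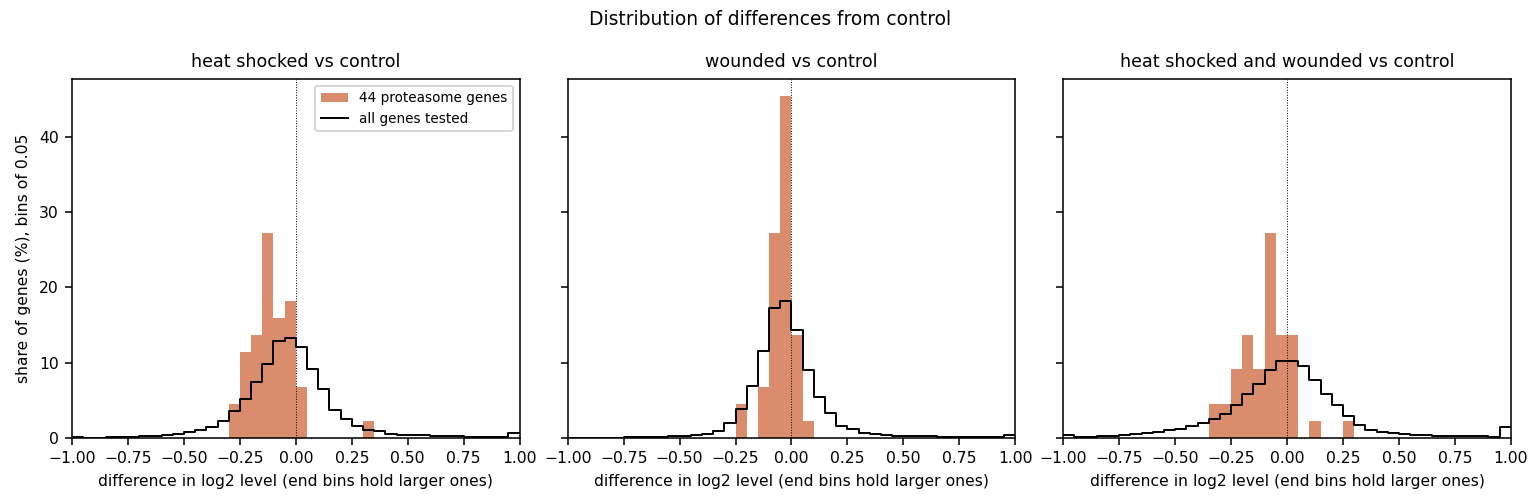
Share of genes in percent (y axis) by difference from control in log2 level (x axis, bins of 0.05), for the 44 proteasome genes (filled) and all 18132 genes (line), in heat shocked, wounded, and heat shocked and wounded monolayers. The proteasome genes form a narrow distribution, with its median at -0.12, -0.03 and -0.09 in the 3 panels, and a single gene, PSMD10, stands apart on the right after heat shock.

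PSMD10, also named gankyrin, was the one proteasome gene that rose. It encodes a chaperone of the regulatory particle that binds the ATPase PSMC4 during assembly and is also known as an oncoprotein in liver cancer. Its log2 level was 10.66, 10.63 and 10.58 in heat shocked and wounded monolayers and 10.73, 10.75 and 10.63 in heat shocked ones, against 10.38, 10.33 and 10.32 in wounded and 10.39, 10.34 and 10.39 in control monolayers. All 6 heat shocked arrays, wounded or not, lay above all 6 others. The differences from control were 0.33 ± 0.06 (SE) after heat shock (limma adjusted p = 0.00296), a fold of 1.26, and 0.25 ± 0.06 after both treatments (adjusted p = 0.0073). Against wounded monolayers, PSMD10 was higher by 0.28 ± 0.06 when heat shock came first (adjusted p = 0.00706). Its other probe set rose with it, by 0.29 after heat shock and 0.35 after both treatments. The call held in all 12 fits that left out an array, in each of these comparisons, and was lost when replicates 1 and 2 were averaged into 1 (adjusted p = 0.0697, 0.0979 and 0.0925).

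PSMD11 fell wherever heat shock was applied. It encodes a scaffold subunit of the lid that clamps the regulatory particle to the core, and its protein level is known to set the amount of assembled proteasome in human embryonic stem cells. Heat shocked and wounded monolayers had log2 levels of 11.17, 11.12 and 11.14 and heat shocked ones 11.22, 11.23 and 11.16, against 11.41, 11.43 and 11.43 in wounded and 11.45, 11.43 and 11.38 in control monolayers. Here the 6 heat shocked arrays lay below the 6 others with no overlap. PSMD11 fell by 0.28 after both treatments (adjusted p = 0.00237) and by 0.22 after heat shock alone (adjusted p = 0.0187), with an SE of 0.05 each. It was also lower by 0.28 in heat shocked and wounded than in wounded monolayers (adjusted p = 0.00474). Both of its probe sets fell. The call after heat shock alone was lost without heat shocked replicate 1, control replicate 1 or control replicate 2, with differences from -0.24 to -0.19 over all alternatives, while the calls after both treatments held in all 12 fits that left out an array. With replicates 1 and 2 averaged into 1, all 3 PSMD11 calls were lost (adjusted p = 0.171 for heat shock, 0.054 for both treatments and 0.0758 against wounded monolayers).

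PSMD5, a chaperone that holds the base ATPases before they join the core, had the largest fall of the set. Its log2 level was 9.14, 9.03 and 9.10 in heat shocked and wounded monolayers, 9.16, 9.14 and 9.27 in heat shocked, 9.28, 9.22 and 9.37 in wounded and 9.36, 9.45 and 9.47 in control monolayers. The heat shocked and wounded arrays lay below all 6 arrays that had no heat shock, whereas wounded and control arrays overlapped. PSMD5 fell by 0.34 after both treatments (SE 0.07, adjusted p = 0.00283) and by 0.24 after heat shock (SE 0.07, adjusted p = 0.0366). After wounding alone the difference was -0.14 ± 0.07 and did not pass (adjusted p = 0.408). Its second probe set was lower by 0.37 and 0.22 in the same comparisons with heat shock. The call after both treatments held under every alternative, and that after heat shock alone held in 6 of 12 fits that left out an array. The latter was also lost under cyclic loess, with all probe sets averaged and with replicates 1 and 2 averaged. The remaining regulatory-particle chaperone, PSMD9, was at -0.17 ± 0.08 after heat shock and -0.18 ± 0.08 after both treatments and was not called (adjusted p = 0.205 and 0.143), although a dimmer probe set of PSMD9 fell by 0.48 after both treatments (adjusted p = 0.0328 over all probe sets).

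The promoter regions of these 3 genes are shown because they carry the largest differences of the regulatory particle and go in opposite directions after heat shock. Each runs from 250 bases before the transcript start to 50 bases after it, 5′ to 3′ on the gene's strand, as RefSeq gives it on GRCh38.p14. PSMD10 lies at chrX:108091493-108091792 on the minus strand, PSMD11 at chr17:32444260-32444559 on the plus strand and PSMD5 at chr9:120842873-120843172 on the minus strand. Capitals mark matches on either strand, overlapping ones included, to 4 motifs. They are CCAAT (the NF-Y box), TGANNNNGC and the heat shock element pairs GAANNTTC and TTCNNGAA. TGANNNNGC is a loose pattern that includes the core of the antioxidant response element, so a match need not be that core. NFE2L1 and NFE2L2 bind that element with a small MAF protein.
PSMD10: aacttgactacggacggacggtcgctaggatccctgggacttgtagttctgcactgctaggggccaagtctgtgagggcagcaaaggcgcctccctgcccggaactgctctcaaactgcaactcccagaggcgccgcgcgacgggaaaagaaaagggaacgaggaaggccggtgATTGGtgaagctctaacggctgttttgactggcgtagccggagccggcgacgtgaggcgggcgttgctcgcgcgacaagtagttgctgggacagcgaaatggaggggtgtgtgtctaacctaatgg
PSMD11: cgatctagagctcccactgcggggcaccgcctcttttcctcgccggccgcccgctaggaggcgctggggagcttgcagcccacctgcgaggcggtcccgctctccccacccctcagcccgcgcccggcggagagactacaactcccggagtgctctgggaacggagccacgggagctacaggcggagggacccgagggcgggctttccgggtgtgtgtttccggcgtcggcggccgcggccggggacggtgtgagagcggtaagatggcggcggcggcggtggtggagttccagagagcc
PSMD5: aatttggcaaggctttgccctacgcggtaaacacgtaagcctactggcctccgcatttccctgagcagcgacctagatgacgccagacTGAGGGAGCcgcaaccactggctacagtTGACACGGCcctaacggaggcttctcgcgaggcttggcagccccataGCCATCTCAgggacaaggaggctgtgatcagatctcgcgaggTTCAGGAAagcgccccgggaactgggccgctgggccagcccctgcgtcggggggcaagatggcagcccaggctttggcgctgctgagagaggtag
The capitals in PSMD10 are 1 CCAAT match read on the opposite strand, with its first base at position -76 from the start. PSMD11 held no match to any of the 4 motifs in this window. PSMD5 held 3 matches to TGANNNNGC, at -162, -134 and -87, and 1 to TTCNNGAA, at -45.

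RefSeq windows were at hand for 38 of the 44 genes, 45 windows in all, and 6 genes had more than 1. TGANNNNGC occurred in 62.2% of these windows, against 41.8% of all 35116 promoter windows. CCAAT occurred in 40.0% against 34.6%. GAANNTTC occurred in 0 of the 45 windows against 6.77% of all, and TTCNNGAA in 6.67% (PSMB5, PSMD5 and PSMD6) against 7.74%. A match describes these letters only, and so does the lack of one.

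The other 8 PSMD subunits measured, which form the lid and the non-ATPase part of the base, gave no call. PSMD4, a ubiquitin receptor, was at -0.13 ± 0.06 after heat shock and -0.09 ± 0.06 after both treatments. PSMD14, the deubiquitinase that strips ubiquitin chains from substrates, was at -0.00371 ± 0.06 after heat shock and 0.01 ± 0.06 after both, with a 95% interval from -0.13 to 0.13 after heat shock. With PSMD11 included, these 9 subunits had a median difference of -0.12 following heat shock, -0.01 following wounding and -0.08 with both treatments.

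Among the 5 base ATPases measured, which unfold substrates and thread them into the core, only PSMC3 was called, and only after heat shock alone. Its log2 level was 10.32, 10.41 and 10.39 in heat shocked and wounded, 10.24, 10.28 and 10.36 in heat shocked, 10.40, 10.40 and 10.55 in wounded and 10.50, 10.50 and 10.56 in control monolayers. The heat shocked arrays, with and without wounding, lay below every control array, and wounded and control arrays overlapped. PSMC3 fell by 0.22 after heat shock (SE 0.06, adjusted p = 0.0417), a call that held in 4 of 12 fits that left out an array. That call was also lost under cyclic loess and with replicates 1 and 2 averaged. With both treatments PSMC3 was at -0.14 and was not called (adjusted p = 0.142). PSMC2 was at -0.00179 and PSMC4 at 0.01 after heat shock.

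**Figure D2:**
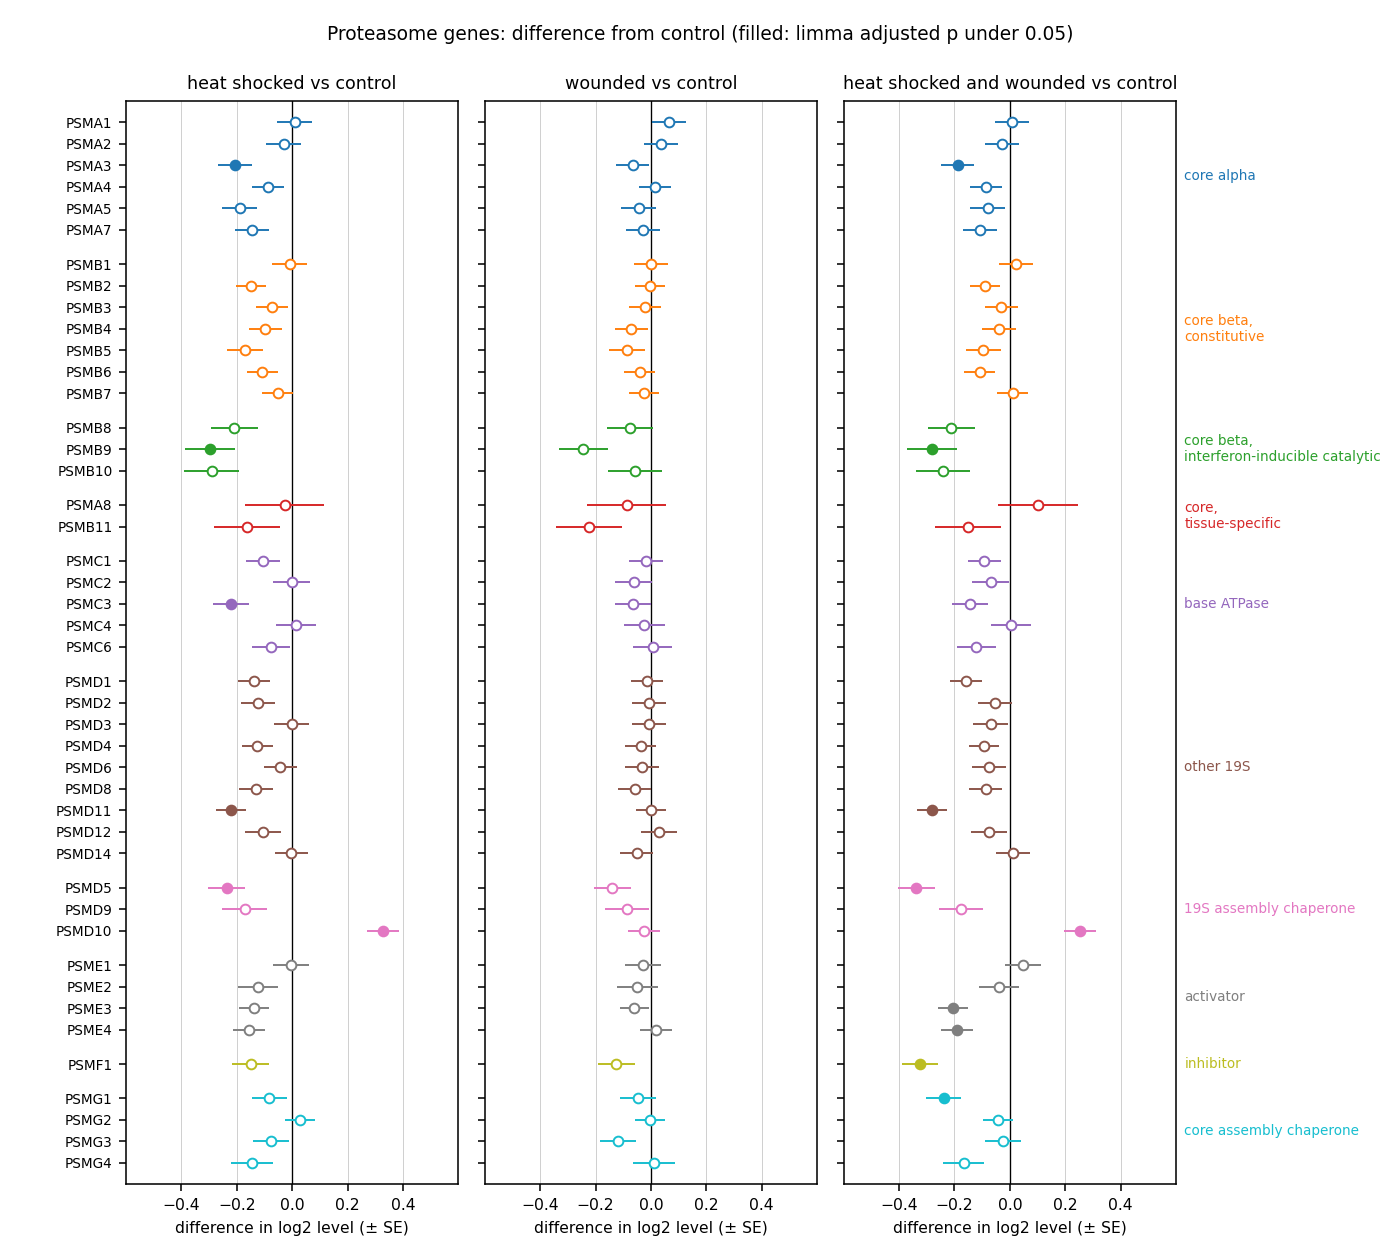
Difference from control in log2 level (x axis, ± SE) for each of the 44 proteasome genes (y axis, grouped and coloured by class), in heat shocked, wounded, and heat shocked and wounded monolayers. Filled points passed limma's adjusted p of 0.05: 6 for heat shock, 0 for wounding and 9 for both treatments, with PSMD10 the only filled point right of 0.

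The alpha ring of the core gave 1 call. PSMA3, a subunit of this ring, had log2 levels of 11.02, 11.13 and 11.07 in heat shocked and wounded and 11.08, 11.11 and 10.98 in heat shocked monolayers, against 11.18, 11.20 and 11.21 in wounded and 11.23, 11.33 and 11.24 in control monolayers. Heat shocked arrays of both kinds lay below the 6 others. PSMA3 fell by 0.21 after heat shock (adjusted p = 0.0435) and by 0.19 after both treatments (adjusted p = 0.0425), with an SE of 0.06 each. These calls were close to the threshold: they held in 1 and 3 of 12 fits that left out an array, with adjusted p up to 0.18 and 0.194 over all alternatives. PSMA1 was at 0.00854 ± 0.06 after heat shock and 0.00704 ± 0.06 after both, while a much dimmer probe set of PSMA1 fell by 0.48 after both treatments (adjusted p = 0.00174 over all probe sets).

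None of the 7 constitutive beta subunits was called in any comparison with control. The catalytic ones are PSMB6, PSMB7 and PSMB5, which cut after acidic, basic and hydrophobic residues. PSMB5, the target of bortezomib, had log2 levels of 11.06, 11.12 and 11.16 in heat shocked and wounded, 11.05, 11.06 and 11.01 in heat shocked, 11.12, 11.05 and 11.20 in wounded and 11.19, 11.29 and 11.15 in control monolayers. Heat shocked arrays lay below the controls without overlap, but the difference of -0.17 ± 0.06 did not pass (adjusted p = 0.11). PSMB6 read 11.92, 11.96 and 11.88 in heat shocked and wounded, 11.94, 11.92 and 11.91 in heat shocked, 11.98, 11.99 and 11.99 in wounded and 12.02, 12.08 and 11.98 in control monolayers. PSMB7 read 11.67, 11.74 and 11.70 in heat shocked and wounded, 11.69, 11.63 and 11.61 in heat shocked, 11.65, 11.66 and 11.70 in wounded and 11.68, 11.73 and 11.68 in control monolayers, with all 4 groups overlapping. PSMB6 differed from control by -0.11 ± 0.06 after heat shock and again after both treatments, and PSMB7 by -0.05 ± 0.06 and 0.01 ± 0.06. For PSMB7 the 95% interval after heat shock ran from -0.17 to 0.07.

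The 3 interferon-inducible counterparts, PSMB9, PSMB10 and PSMB8, which replace PSMB6, PSMB7 and PSMB5 in the immunoproteasome, had negative differences from control under all 3 treatments, but only PSMB9 was called. PSMB9 had log2 levels of 8.01, 7.84 and 8.17 in heat shocked and wounded, 7.97, 8.03 and 7.98 in heat shocked, 8.06, 7.90 and 8.17 in wounded and 8.30, 8.35 and 8.22 in control monolayers. All 9 treated arrays lay below the 3 controls. It fell by 0.30 after heat shock (adjusted p = 0.0468) and by 0.28 after both treatments (adjusted p = 0.0383), and was at -0.24 after wounding alone (adjusted p = 0.226), with an SE of 0.09 in each. Without heat shocked and wounded replicate 2, the array with the narrowest spread, its difference after both treatments was -0.20 and was not called (adjusted p = 0.143). That call was also lost without heat shocked and wounded replicate 1, heat shocked replicate 1, wounded replicate 1 or any control array, and the call after heat shock held in 4 of 12 fits that left out an array. Both calls were lost with all probe sets averaged and with replicates 1 and 2 averaged. The call after both treatments was lost under cyclic loess too, and that after heat shock with the replicate block.

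PSMB8 had log2 levels of 8.16, 7.98 and 8.07 in heat shocked and wounded, 8.13, 8.19 and 7.90 in heat shocked, 8.25, 8.11 and 8.25 in wounded and 8.33, 8.29 and 8.22 in control monolayers. PSMB10 had 8.43, 8.39 and 8.58 in heat shocked and wounded, 8.45, 8.45 and 8.35 in heat shocked, 8.53, 8.54 and 8.87 in wounded and 8.71, 8.81 and 8.59 in control monolayers. For both genes the heat shocked arrays, with and without wounding, lay below the controls, while the wounded arrays overlapped them. The differences after heat shock were -0.21 ± 0.08 for PSMB8 (adjusted p = 0.135) and -0.29 ± 0.10 for PSMB10 (adjusted p = 0.0733), and after both treatments -0.21 ± 0.08 (adjusted p = 0.0946) and -0.24 ± 0.10 (adjusted p = 0.102). The median difference of the 3 inducible subunits was -0.29 after heat shock and -0.24 after both, beside -0.10 and -0.04 for the 7 constitutive beta subunits. The difference between the 2 classes was not tested.

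**Figure D3:**
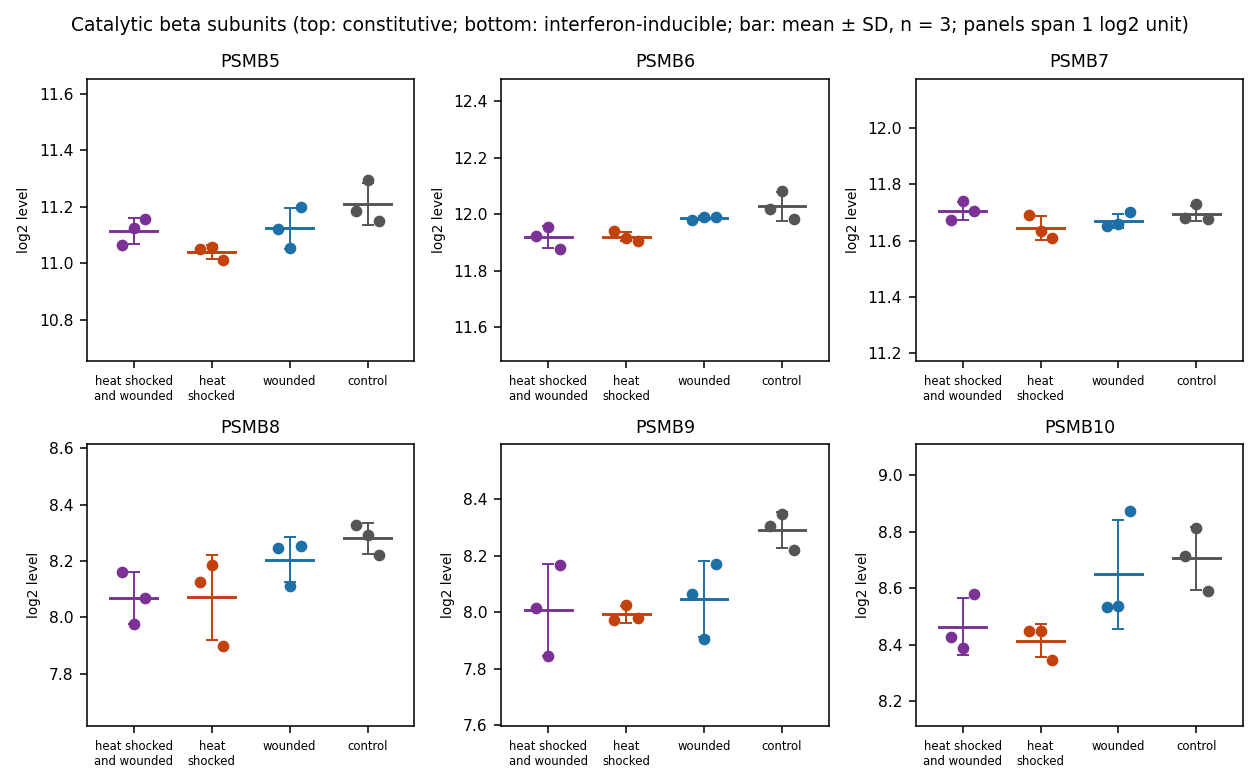
Log2 level (y axis) on each array of the 3 constitutive catalytic subunits (top) and their interferon-inducible counterparts (bottom), in heat shocked and wounded, heat shocked, wounded and control monolayers (x axis); bars are mean ± SD, n = 3, and each panel spans 1 log2 unit. PSMB9 sits below its controls on all 9 treated arrays, whereas PSMB7 overlaps between all 4 groups.

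PSMA8 and PSMB11, core subunits of testis and thymus, read 2.07 to 2.69 and 2.19 to 2.83 over the 12 arrays. Neither was called, and at such low levels a difference on this array can be compressed.

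Activators open the core without ubiquitin. PSME1 and PSME2, the interferon-inducible cap, were not called, with differences of -0.00403 ± 0.06 and -0.12 ± 0.07 after heat shock and 0.05 ± 0.06 and -0.04 ± 0.07 after both treatments. PSME3, the nuclear activator, had log2 levels of 9.12, 9.14 and 9.15 in heat shocked and wounded, 9.18, 9.20 and 9.22 in heat shocked, 9.29, 9.24 and 9.32 in wounded and 9.32, 9.36 and 9.35 in control monolayers. PSME4, the large activator known from sperm and DNA repair, had 9.16, 9.13 and 9.12 in heat shocked and wounded, 9.18, 9.17 and 9.17 in heat shocked, 9.33, 9.28 and 9.43 in wounded and 9.31, 9.33 and 9.36 in control monolayers. In both genes the 6 heat shocked arrays lay below the 6 others. PSMA4, PSMB2, PSMB6, PSMD1 and PSMD4, which were not called, split in the same way. The share of all genes with such a split was not counted. After both treatments PSME3 fell by 0.21 (adjusted p = 0.0148) and PSME4 by 0.19 (adjusted p = 0.0306), with SEs of 0.05 and 0.06. After heat shock alone PSME3 was at -0.14 (adjusted p = 0.121) and PSME4 at -0.16, and neither was called. Leaving out heat shocked and wounded replicate 1 lost the PSME3 call, and averaging all of its probe sets gave an adjusted p of 0.161. The PSME4 call held in 6 of 12 fits that left out an array and was lost with all of its probe sets averaged. Both calls were lost under cyclic loess and with replicates 1 and 2 averaged.

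PSMF1, first described as an inhibitor of the core particle, had log2 levels of 9.45, 9.30 and 9.48 in heat shocked and wounded, 9.55, 9.62 and 9.58 in heat shocked, 9.67, 9.60 and 9.55 in wounded and 9.70, 9.77 and 9.73 in control monolayers. The heat shocked and wounded arrays lay below all 9 others, and the heat shocked and wounded-only arrays overlapped. It fell by 0.32 after both treatments (SE 0.07, adjusted p = 0.00322), beside -0.15 ± 0.07 after heat shock and -0.12 ± 0.07 after wounding, neither of which passed. Its 6 probe sets did not move together: after both treatments 3 were lower, by 0.18 to 0.32, and 3 were higher, by 0.12 to 0.27. The mean over all of them differed by -0.05 and was not called (adjusted p = 0.69). The call therefore rests on the probe set that was read.

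The PSMG chaperones build the alpha ring of the core, PSMG1 with PSMG2 and PSMG3 with PSMG4. PSMG1 had log2 levels of 8.99, 9.13 and 9.07 in heat shocked and wounded, 9.12, 9.30 and 9.24 in heat shocked, 9.22, 9.28 and 9.27 in wounded and 9.31, 9.31 and 9.29 in control monolayers. Only the wounded arrays and those with both treatments were wholly below the controls. PSMG1 fell by 0.24 after both treatments (SE 0.06, adjusted p = 0.0169) and was at -0.08 after heat shock. This call was lost without heat shocked and wounded replicate 1, control replicate 1 or control replicate 2. It was also lost under cyclic loess and with replicates 1 and 2 averaged. PSMG4 was at -0.17 ± 0.08 after both treatments (adjusted p = 0.141), and PSMG2 and PSMG3 were at -0.04 and -0.02. POMP, the further chaperone of core assembly, was at -0.10 ± 0.05 after heat shock and -0.02 ± 0.05 after both, neither called.

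**Figure D4:**
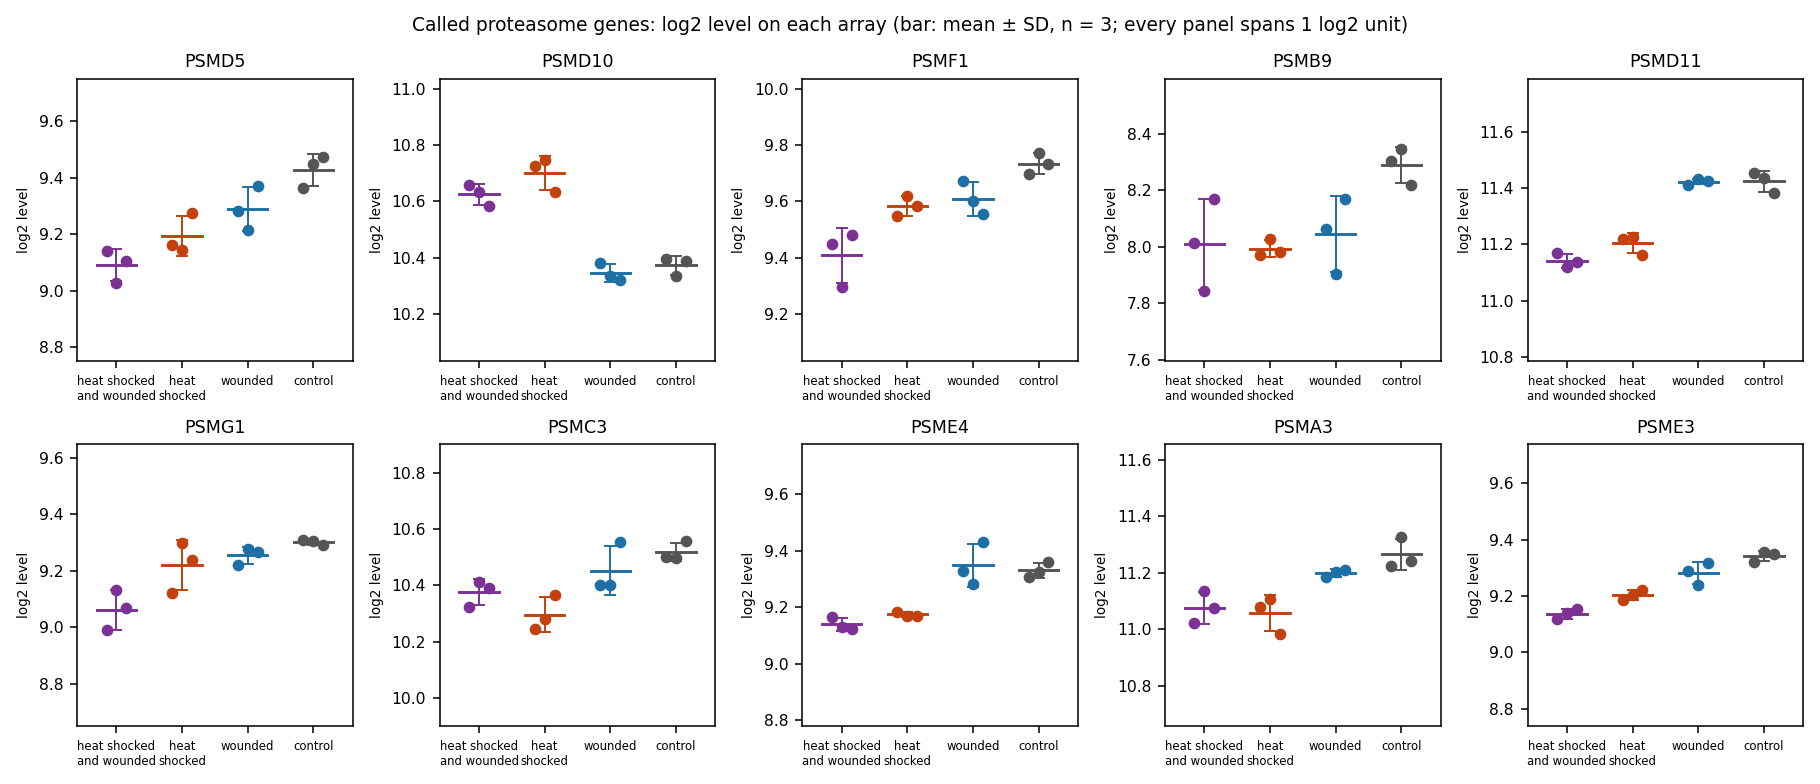
Log2 level (y axis) on each array of the 10 proteasome genes called against control in any comparison, in heat shocked and wounded, heat shocked, wounded and control monolayers (x axis); bars are mean ± SD, n = 3, and each panel spans 1 log2 unit. In PSMD10 the 6 heat shocked arrays lie above the 6 others, and in PSMD11, PSMA3, PSME3 and PSME4 they lie below them. The split is not particular to called genes: PSMA4, PSMB2, PSMB6, PSMD1 and PSMD4, not shown, also have it.

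Leaving out single arrays changed how many proteasome genes were called. After heat shock the count was 1 without heat shocked replicate 1, control replicate 1 or control replicate 2, and 2 without heat shocked replicate 2, wounded replicate 1 or control replicate 3. It was 3 without heat shocked and wounded replicate 1. The share of all genes called was also below 12.9% in these 7 fits: 7.93% to 8.44% in the first 3, 9.55%, 11.2% and 9.88% in the next 3 and 12.2% in the last. After both treatments it was 4 without heat shocked and wounded replicate 1 and 5 without control replicate 1 or control replicate 2, and without heat shocked and wounded replicate 2 it was 7, where 20.2%, 17.0%, 17.6% and 18.6% of all genes were called. PSMD10 was among the calls in all of these fits.

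Setting heat shocked and wounded against wounded monolayers gives the difference that heat shock makes in wounded cells. There 3 of the 44 genes were called, PSMD10 higher and PSMD11 and PSME4 lower, where 14.9% of all genes were called (6.31% higher and 8.6% lower). PSME4 fell by 0.21 (adjusted p = 0.0301), a call lost without any 1 of the heat shocked and wounded arrays, without wounded replicate 1 or without wounded replicate 3 (differences from -0.22 to -0.17). It was also lost under cyclic loess, with all probe sets averaged and with replicates 1 and 2 averaged. Of the 44, 2 were wholly above and 17 wholly below the wounded arrays, where 32.1% of all genes did not overlap (14.9% higher and 17.2% lower). The count of calls was 2 without heat shocked and wounded replicate 1 or replicate 2, or without wounded replicate 1 or replicate 3. Setting heat shocked and wounded against heat shocked monolayers compares heat shocked cells with and without wounding. As the interval between heat shock and wounding is not stated, these groups may also differ in time since heat shock. Such a difference cannot be told apart from wounding here. Between these groups limma called 0 of the 44, 2 at an unadjusted p under 0.05, where 4.3% of all genes were called (2.71% higher and 1.58% lower). Here 5 were wholly above and 5 wholly below the heat shocked arrays, where 19.9% of all genes did not overlap (10.6% higher and 9.33% lower). The 2 genes were PSMF1 at -0.17 (adjusted p = 0.186) and PSMG1 at -0.16 (adjusted p = 0.224).

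Whether wounding changed the response to heat shock was tested as an interaction. Any difference in time since heat shock would enter this value too. Limma called 0 of the 44 genes, 0 at an unadjusted p under 0.05, where 0.00552% of all genes, a single gene, were called. The proteasome gene with the lowest p was PSMB9, whose interaction of 0.26 had a 95% interval from -0.01 to 0.53. These comparisons share arrays with those against control, so their values stand side by side and are no independent evidence of each other.

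The 2 interacting proteins differed from each other. PSMC3IP, which works in homologous recombination and meiosis, averaged 7.19 ± 0.17 in heat shocked and wounded, 7.40 ± 0.06 in heat shocked, 7.56 ± 0.12 in wounded and 7.80 ± 0.07 in control monolayers (log2 level, SD, n = 3 each). Every treated array lay below every control array. It fell by 0.61 after both treatments (adjusted p = 0.000388) and by 0.40 after heat shock (adjusted p = 0.0116), more than any proteasome gene. PSME3IP1 was at -0.06 and -0.00892 and was not called.

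Outside the PSM names, ZFAND2A had the largest change among the 46 other pathway genes, and it is one of the proteasome partners. Of 15 partners measured, 2 rose and 0 fell after heat shock, 0 rose and 1 fell after wounding, and 2 rose and 4 fell after both, where 12.9%, 3.57% and 23.1% of all genes were called. ZFAND2A, an arsenite-inducible protein that binds the proteasome and is a known heat shock target, had log2 levels of 11.31, 11.35 and 11.05 in heat shocked and wounded and 11.10, 11.26 and 10.83 in heat shocked monolayers, against 9.80, 9.76 and 9.67 in wounded and 9.57, 9.45 and 9.33 in control monolayers. It rose 3.05-fold after heat shock (log2 difference 1.61 ± 0.11, adjusted p = 3.45e-06) and 3.45-fold after both. AKIRIN2, which carries proteasomes into the nucleus, rose by 0.42 after heat shock (adjusted p = 0.00465) and by 0.35 after both. ZFAND5, an activator that binds the proteasome, fell by 0.48 after both treatments (adjusted p = 0.000147) and by 0.28 after wounding (adjusted p = 0.0332). UCHL5, a deubiquitinase of the proteasome, fell by 0.26 after both, and the proteasome-binding PITHD1 and PAAF1 by 0.21 each. Of 12 fits that left out an array, the UCHL5, PITHD1 and PAAF1 calls held in 8, 7 and 7, and the ZFAND5 call after wounding in 6.

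Transcription factors known to drive proteasome genes, listed together with their activators DDI2 and NGLY1, went in both directions. Of 11 measured, 2 rose and 0 fell after heat shock, 0 rose and 1 fell after wounding, and 2 rose and 3 fell after both, beside the same 12.9%, 3.57% and 23.1% of all genes. With lists of this size, 1 or 2 calls are not far from these shares. The 5 calls among 11 genes after both treatments lay above the share of 23.1%, which was not tested. NFE2L1, the factor that restores proteasome synthesis when the proteasome is inhibited, fell by 0.47 after both treatments (adjusted p = 0.0063), and its relatives NFE2L2 and NFE2L3 fell by 0.66 and 0.99 (adjusted p = 1.75e-05 and 0.00117). For NFE2L2 the log2 levels were 10.25, 10.12 and 10.16 in heat shocked and wounded, 10.70, 10.68 and 10.54 in heat shocked, 10.55, 10.60 and 10.46 in wounded and 10.84, 10.84 and 10.82 in control monolayers. All 9 treated arrays lay below the controls, those with both treatments lowest. NFE2L2 fell by 0.30 after wounding (adjusted p = 0.0292), in 6 of 12 fits that left out an array. MAFF, a small MAF protein that pairs with these factors, rose by 1.05 after heat shock and 1.18 after both. NFYC, a subunit of the factor that binds CCAAT boxes, rose by 0.43 and 0.30, a call lost when all of its probe sets were averaged (adjusted p = 0.144 after heat shock). The NFE2L1 call was likewise lost with all probe sets averaged. HSF1, the master heat shock factor, was at 0.15 ± 0.08 after heat shock and was not called at the RNA level.

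Ubiquitin genes and shuttle factors had 10 measured members, of which 0 rose and 1 fell after heat shock, 0 changed after wounding and 0 rose and 3 fell after both. These counts, and those of the interferon list, are near or below the 12.9%, 3.57% and 23.1% of all genes called. UBQLN4, which carries ubiquitinated proteins to the proteasome, fell by 0.34 and 0.44; VCP, the ATPase that extracts them from complexes, and its cofactor NPLOC4 fell by 0.27 and 0.35 after both. Averaging all probe sets took NPLOC4 to 0.02 after both treatments. Interferon and antigen-processing genes had 10 measured members, of which TAP1 alone was called, after heat shock and after both. TAP1, a peptide transporter subunit whose gene lies beside PSMB9, fell by 0.25 after heat shock (adjusted p = 0.0416) and by 0.32 after both (adjusted p = 0.00623). Of 12 fits that left out an array, the heat shock calls of UBQLN4 and TAP1 held in 6 and 4, and the calls of VCP and NPLOC4 in 9 and 5. Averaging all probe sets also lost both UBQLN4 calls.

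**Figure D5:**
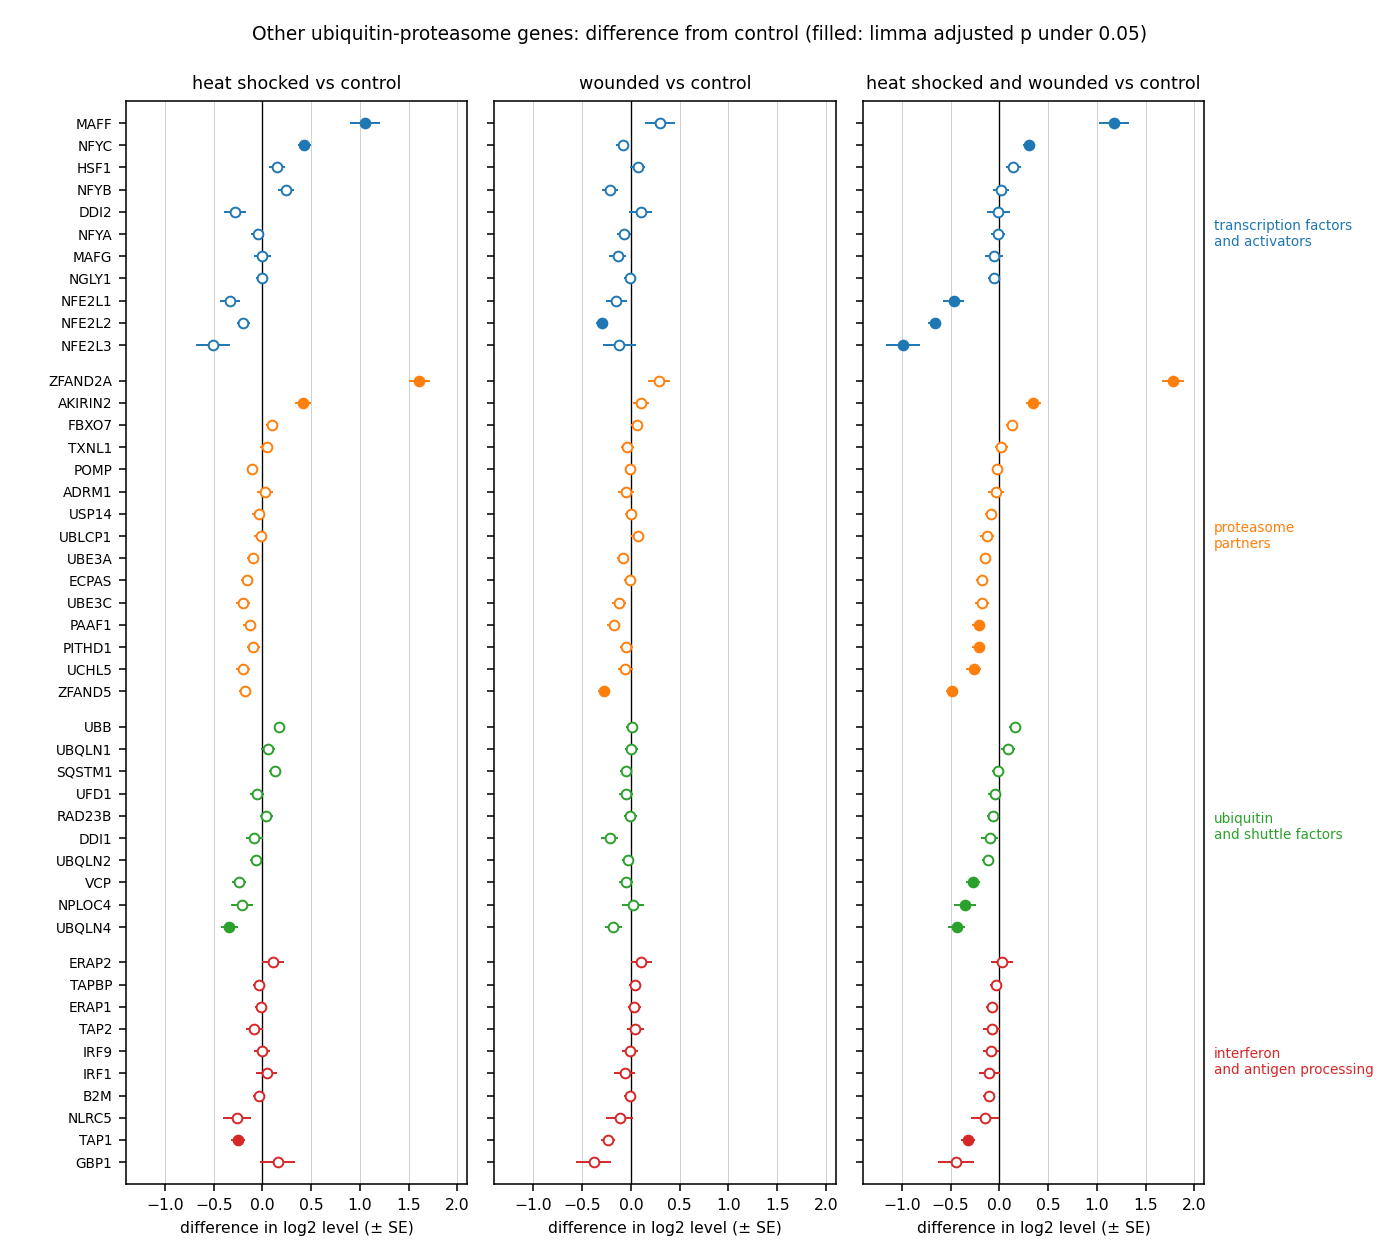
Difference from control in log2 level (x axis, ± SE) of 46 other genes of the ubiquitin-proteasome pathway (y axis, grouped and coloured by list), in heat shocked, wounded, and heat shocked and wounded monolayers; filled points passed limma's adjusted p of 0.05. ZFAND2A and MAFF lie farthest right after heat shock and after both treatments, and NFE2L3 lies farthest left after both.

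With both treatments some cell type markers were called, where 23.1% of all genes were called (8.66% higher and 14.4% lower). Of the epithelial list 1 of 5 fell, CDH1 by 0.26, and its summed level was 55.5 to 55.8 per array, against 55.7 to 56.3 in controls. Of the fibroblast list 1 of 7 rose, COL1A1 by 1.05, and its summed level was 26.6 to 28.0, against 25.9 to 26.6 in controls. After heat shock alone COL1A1 also rose by 0.78 and COL3A1 fell by 0.35, where 12.9% of all genes were called. Of the alveolar type II list NKX2-1 rose by 0.41 and ABCA3 fell by 0.27 with both treatments. The part of these shifts in the proteasome values was not tested.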

How the data were processed

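RNA of 12 A549 samples, 3 in each of 4 groups, was hybridised to PrimeView arrays, 100 ng of total RNA per array, per the labels' protocols. The deposited log2 values are probe set levels; the submitters' processing notes name Affymetrix Expression Console and RMA. The method subtracts background, gives every array the same distribution of probe intensities and then combines the probes of each set. It removes a shift common to all genes and compresses dim sets, while the combined levels can still differ in spread between arrays. No version is stated in the sources used here, and the number of arrays limits the precision.

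Of 49293 probe sets, 1 had a missing value and was left out; 44987 carried 1 gene symbol in the platform annotation, 1832 several and 2473 were not listed. Only those with 1 symbol were used, with the highest-mean probe set per gene, which gave 18132 genes; the 44 proteasome genes had 108 probe sets, and 32 of the genes had more than 1. The model held a mean for each of the 4 groups and used every array, with 8 residual degrees of freedom. It was fitted with limma 3.58.1, run under R 4.3.3, through its functions lmFit, contrasts.fit and eBayes, with moderated variances and Benjamini-Hochberg adjustment over all genes. Genes were called at an adjusted p under 0.05, with no threshold on the size. Values after ± are SE for differences and SD for levels. The steps were tested on simulated data, in which fewer genes were changed than were called here. Of 50 changes of 0.2, 3 were called for heat shock, 1 for wounding and 2 for both treatments against control. Of 50 changes of 0.3, 7, 11 and 10 were called in the same order. The changed genes were drawn at random from all genes at any level, so these counts need not hold for the proteasome genes. A proteasome gene that was not called is still not shown to be unchanged at these sizes.

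Replicate numbers come from the sample titles. Deviations of same-numbered arrays from their group means correlated at -0.187 to 0.234, with a median of 0.057 and 6 of 18 pairs over 0.1. Those of arrays with different numbers correlated at -0.194 to 0.243, with a median of -0.026 and 7 of 36 pairs over 0.1. These overlapping ranges do not decide whether the samples were paired, so pairing was used in an alternative only. Alternatives were cyclic loess, median centring, a mean level of at least 5, the mean of all probe sets, eBayes with trend and robust settings, the replicate block, replicates 1 and 2 averaged, and each of the 12 arrays left out. The descriptions give replicates 1 and 2 codes that may mark a shared source, which is why they were averaged in one alternative. All genes matching the symbol rule could be named, and values on every array were given for those called against control and for the catalytic pairs. The members, the lists of other pathway genes and the cell type markers were chosen with earlier results of these data known.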

Additional observations from a re-analysis of the deposited data

How the results depend on the processing

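Of the called differences of proteasome genes 0 changed direction under these alternatives, in which genes that were not called were not followed; of those of the other pathway genes NPLOC4 did, at 0.0240 after both treatments with all probe sets averaged. Under cyclic loess the counts of called proteasome genes were 3 after heat shock and 4 after both treatments. The medians over the proteasome genes were -0.0819 and -0.0359, and -0.0193 against wounding. Over all genes they were -0.00663, 0.0126 and 0.0205 in the same order, against -0.0342, -0.00671 and 0.0202 as deposited. The share of higher among all called genes was then 49.59%, 50.09% and 53.05% in these comparisons, against 38.37%, 37.58% and 42.31% as deposited. With a mean level of at least 5, which tests fewer genes, 12 of 42 were called after heat shock and 8 against wounding, where 27.2% and 28.1% of all genes were called. With trend and robust settings 13 and 7 were called, where 16.7% and 17.7% of all genes were. The median for both treatments against heat shock, 0.0127, was -0.0110 with all probe sets averaged and -0.00841 without heat shocked replicate 3. Averaging all probe sets gave 3 after heat shock. With replicates 1 and 2 averaged, which leaves fewer values, 0 were called after heat shock, 2 after both and 0 against wounding, and over all genes 919, 2475 and 1104 were called in these comparisons, 224 after wounding and 333 for both treatments against heat shock. The causes of the other shifts were not tested. Leaving out 1 array gave 1 to 6 calls after heat shock (median difference -0.13 to -0.10), 0 to 0 after wounding (-0.05 to -0.01), 4 to 10 after both (-0.10 to -0.08), 2 to 3 against wounding (-0.07 to -0.04), 0 to 0 against heat shock (-0.01 to 0.03) and 0 to 0 for the interaction (0.03 to 0.07). With the replicate block 5, 0, 9, 3, 0 and 0 proteasome genes were called in the same order, beside 6, 0, 9, 3, 0 and 0 without it; the numbers are not known to pair the samples. The SD of the median over the proteasome genes between replicate arrays was 0.0328. The median difference after wounding, -0.03, was near that size, while those after heat shock, -0.12, and both treatments, -0.09, were larger. Gene by gene, 38 of the 44 after heat shock and 35 after both treatments were not called. Signal over background could not be read from these values.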
